A study of Homo sapiens with 8 samples.

Results

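The 55 genes described here make up the core cell cycle and DNA replication machinery: G1 cyclins and their kinases, kinase inhibitors, retinoblastoma family proteins, E2F factors, CDC25 phosphatases, origin licensing factors, nucleotide supply enzymes, S and M phase cyclins, and mitotic proteins. They are a list of names, drawn up with earlier results of these data known, and each of the 55 names matched 1 row among the 35940 gene symbols of the deposited expression table. They were followed in ESI017, a wild-type human embryonic stem cell line, over the first days of neural differentiation. Cells seeded at 30000 per cm2 left the maintenance medium mTeSR1 for N2B27, which is serum-free and supports neural fates, and received 10 µM SB and 100 nM LDN, inhibitors that the labels give by these short names. Recombinant WNT3A, a secreted WNT ligand, was given at 34 h at 300 ng/mL according to the design text, and the labels call the course posterior neural differentiation.

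Poly(A) RNA was sequenced from 2 libraries at each of 4 time points: 34 h, when WNT3A was given, and 42, 50 and 72 h, which are 8, 16 and 38 h after it. Every group shared the line, the medium, SB and LDN. A course without WNT3A was not analysed here, so WNT3A and time in culture cannot be told apart in any comparison with 34 h. The labels number the libraries of a time point 1 and 2 and repeat that number as a batch. They do not say whether the cultures were separate, so the p-values measure only the spread between these libraries, which may be technical.

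A dividing cell passes from G1 through DNA synthesis (S) and G2 to mitosis (M). D-type cyclins with CDK4 or CDK6, and E-type cyclins with CDK2, phosphorylate the retinoblastoma proteins in G1, which releases E2F factors to switch on genes for DNA replication. The ORC, CDC6 and CDT1 proteins load the MCM helicase on origins before S phase, and cyclins A and B with CDK1 later drive the cell into mitosis. Human pluripotent stem cells are known for a short G1 that lengthens as they differentiate, and CCND1 is known as a WNT target gene in other cell types.

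Levels are TPM, transcripts per 1000000 scaled for transcript length, so levels of different genes can be set side by side. Differences are on the log2(TPM + 1) scale, are given with their standard error (SE), and understate the change of low genes. A gene was called raised or lowered where limma, a linear model fitted over the 14908 genes that reached 1 TPM in 2 or more libraries of the 8, gave an adjusted p under 0.05. Of the 55 genes 54 passed that filter. CDKN2C, an inhibitor of CDK4 and CDK6, did not, with 0 to 0.455 TPM. The sequencing depth is unknown, since TPM do not carry read numbers.

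The libraries were alike in breadth, with 13860 to 14004 genes at 1 TPM or more and 8.70% to 11.2% of the TPM in mitochondrial genes. The cells lost pluripotency transcripts and gained neural progenitor transcripts over the course. The 8 pluripotency markers summed to 3557 and 3569 TPM at 34 h and to 2044 and 1939 TPM at 72 h, when 4 of the 8 were lowered and 1 was raised. POU5F1 went from 1165 and 1152 TPM to 354 and 388 TPM over that span. The 3 neural progenitor markers SOX1, PAX6 and NES summed to 139 and 135 TPM at 34 h and to 296 and 271 TPM at 72 h, and all 3 were raised. The 8 neuron markers summed to 50.7 to 53.6 TPM at 34 h and 86.8 to 94.5 TPM at 72 h, with NEUROD1 listed at 0 in 7 libraries. Of the 5 neuron markers tested STMN2, MAP2 and DCX were raised at 72 h, by 2.73, 1.21 and 0.80, and RBFOX3 differed by -1.12 (limma adjusted p = 0.0640). STMN2 was raised already at 42 and 50 h and DCX at 50 h. The 8 mesoderm and endoderm markers summed to 13.2 and 15.0 TPM at 34 h, 21.8 and 19.0 at 42 h, 17.6 and 15.5 at 50 h, then 2.67 and 3.18 at 72 h, with SOX17 listed at 0 in all 8 libraries. Of the 4 of these tested TBXT was raised at 42 h by 2.40 and at 50 h by 2.20, MIXL1 was raised at 50 h, and FOXA2 was lowered at 50 and 72 h. The 5 neural crest markers summed to 2.92 to 8.68 TPM, and of the 3 tested PAX3 was raised by 2.29 at 72 h, and FOXD3 was lowered at 42, 50 and 72 h. Of 8 reference genes 3 were lowered at 72 h, by 0.22 to 0.39 (ACTB, GAPDH and HPRT1), where 11.3% of all tested genes were lowered. The 8 differences ran from -0.41 to 0.079, with 7 below 0 and a median of -0.16 beside 0.061 over all tested genes. The part of these shifts in the results on the cell cycle genes was not tested.

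The number of cell cycle genes called grew with time, as did the number over all tested genes. At 42 h 1 of the 54 tested genes was raised (1.85%) and none was lowered, where 2.58% of all tested genes were called, 1.78% raised and 0.792% lowered. At 50 h 6 were raised (11.1%) and none was lowered, against 6.26% of all tested genes, 3.52% raised and 2.74% lowered. At 72 h 15 were raised and 4 were lowered (35.2% in all), against 24.0% of all tested genes, 12.7% raised and 11.3% lowered. After the libraries were rescaled to a common trimmed mean (TMM) the 72 h split was 13 raised and 7 lowered. Without 34 h replicate 1 or 2 it was 8 raised with 1 or 2 lowered, and without 72 h replicate 1 or 2 it was 5 or 6 raised with 2 lowered. Without any 1 library the count at 50 h was 1 to 4, lowest without 34 h replicate 1. Over all tested genes the split depended on the scaling. At 72 h it was 1900 raised and 1678 lowered, 1589 and 1961 after TMM, and 1638 and 1796 after quantile normalization. At 50 h it was 525 and 408, 461 and 497, and 466 and 474 in the same order. Of the 54 genes 4 were raised at 50 h after either rescaling. The median difference from 34 h of the 54 genes was 0.11, 0.20 and 0.18 at the 3 later time points in order, beside 0.0097, 0.045 and 0.061 over all tested genes.

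The steps between later time points gave few calls. Between 42 and 50 h limma called 0 of the 54 genes, with 5 at an unadjusted p under 0.05, and 0 also with the replicate block. Without the block 0.0939% of all tested genes were called (0.0604% raised, 0.0335% lowered). The 14 calls over all genes there split into 9 raised and 5 lowered, and into 9 and 10 after TMM and 9 and 11 after quantile normalization. Between 50 and 72 h 1 of the 54 was raised and 3 were lowered, 7.41% in all, where 7.33% of all tested genes were called, 2.92% raised and 4.41% lowered. That count of 4 became 1 without 50 h replicate 1 or 72 h replicate 2, and 0 without 72 h replicate 1. Over the whole course the moderated F-test of limma called 12 of the 54 (22.2%), beside 17.4% of all tested genes. These were CCND1, CDKN1A, E2F1, E2F2, E2F7, CDC6, MCM3, MCM5, TYMS, MKI67, KIF20A and BUB1. With the replicate block CDC6 and E2F7 were lost from this test (limma adjusted p = 0.0586 and 0.0596). BIRC5, CDK6 and RRM2 were gained (limma adjusted p = 0.0431, 0.0326 and 0.0444). The count of 12 became 6 without either 34 h library, and 5 and 4 without 72 h replicate 1 and 2.

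CCND1, which encodes cyclin D1 and lies at chr11:69641087-69654474 on the plus strand (GRCh38), was the 1 gene of the 54 called at 42 h. It also had the largest difference from 34 h among the 54 at 42, 50 and 72 h. CCND1 stood at 88.8 and 65.5 TPM at 34 h, at 301 and 246 TPM at 42 h, at 341 and 257 TPM at 50 h, and at 297 and 302 TPM at 72 h. Every library from 42 h on was above both 34 h libraries, and the later time points overlapped one another. The rise over 34 h was 1.82 ± 0.18 (SE, n = 2 libraries per time point) at 42 h with a limma adjusted p of 0.00143. It was 1.94 at 50 h (limma adjusted p = 0.000574) and 1.96 at 72 h (limma adjusted p = 0.000191). Within replicate numbers the 42 h rise was 1.75 and 1.89, a 3.54-fold ratio of the mean TPM. All 3 calls held in each of the 19 alternatives. The mesoderm marker TBXT was also raised at 42 h, from 0.831 and 1.16 TPM to 11.4 and 7.92 TPM, and stood at 1.62 and 1.87 TPM at 72 h. It was the 1 called at 42 h of the 4 mesoderm and endoderm markers tested. Their 42 h differences ran from -0.71 to 2.40, with 3 above and 1 below 0. The part of TBXT in the CCND1 result was not tested. In bulk RNA a change in the number of cells with a transcript and a change in the amount per cell cannot be told apart.

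The other D-type cyclins were not called in any comparison. CCND2, encoding cyclin D2, stood at 10.9 and 14.8 TPM in the 34 h libraries, 14.7 and 13.4 at 42 h, 11.7 and 11.5 at 50 h, then 12.6 and 12.2 at 72 h. CCND3, encoding cyclin D3, stood at 26.8 and 19.0 TPM when WNT3A was added, 21.2 and 23.1 by 42 h, 23.0 and 22.2 by 50 h, then 16.6 and 21.2 by 72 h. The 34 h libraries of CCND2 lay on either side of all 6 later ones, and those of CCND3 on either side of 5 of them. The summed level of the 3 D-type cyclins went from 126 and 99.4 TPM at 34 h to 327 and 336 TPM at 72 h. CCND1 made up 70.2% and 65.9% of that sum in the 34 h libraries, 89.4% and 87.1% by 42 h, 90.8% and 88.4% by 50 h, then 91.1% and 90.0% by 72 h.

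**Figure D1:**
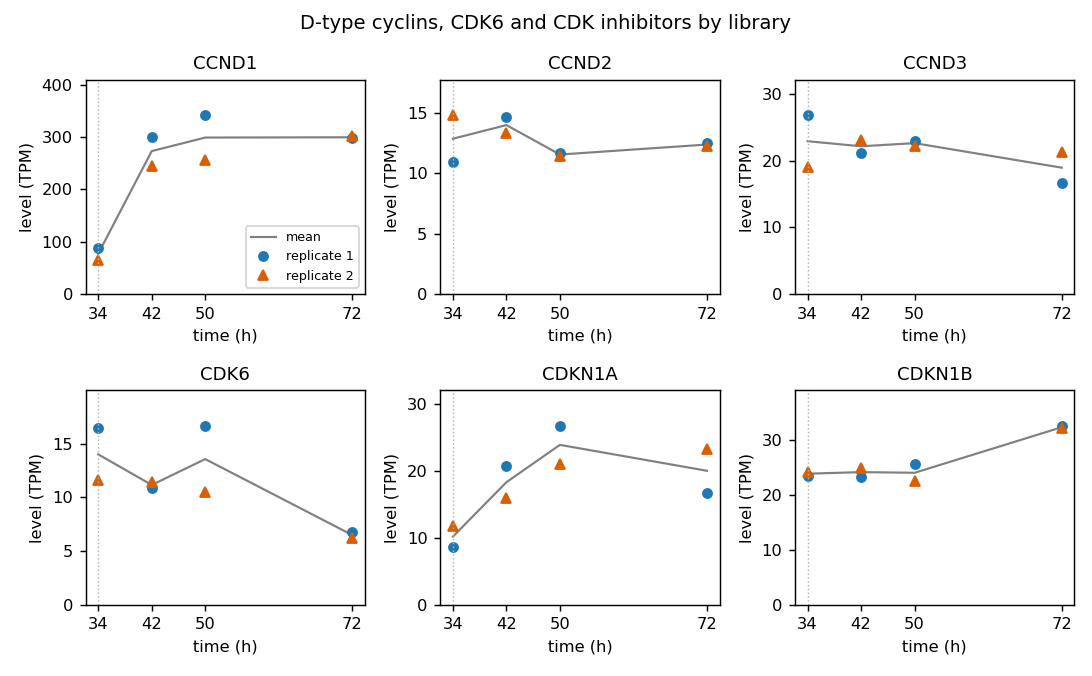
Level in TPM (y axis, from 0) of CCND1, CCND2, CCND3, CDK6, CDKN1A and CDKN1B against time in h (x axis). Points are the 2 libraries of each time point, the line joins their means and the dotted line marks the addition of WNT3A at 34 h. CCND1 went from 88.8 TPM or less to 246 TPM or more by 42 h, CDK6 stood lowest at 72 h, and CDKN1B lay between 22.5 and 25.6 TPM until 50 h.

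Of the 2 kinases that partner D-type cyclins, CDK4 was not called in any comparison and CDK6 was lowered at 72 h. CDK4 had 274 to 315 TPM over the 8 libraries. CDK6 stood at 16.4 and 11.6 TPM in the 34 h libraries, 10.9 and 11.4 at 42 h, 16.6 and 10.5 at 50 h, then 6.77 and 6.21 at 72 h. Both 72 h libraries lay below all 6 earlier ones. CDK6 fell by 0.99 ± 0.23 at 72 h against 34 h (limma adjusted p = 0.0182). That call was lost without 34 h replicate 1, 72 h replicate 1 or 72 h replicate 2, with limma adjusted p from 0.0720 to 0.106. Against 50 h the difference was -0.93 with a limma adjusted p of 0.0513. It was called in 7 of the 19 alternatives, among them the replicate block (limma adjusted p = 0.0319), TMM (0.0436) and the fit without 50 h replicate 2 (0.0352). The ratio of CDK4 to CDK6 TPM was 18.2 and 23.6 at 34 h and 40.8 and 44.1 at 72 h.

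The E-type cyclins and their kinase CDK2 gave no call. CCNE1, encoding cyclin E1, went from 42.9 and 48.9 TPM at 34 h to 36.8 and 34.6 TPM at 72 h, a difference of -0.35 ± 0.12 (limma adjusted p = 0.0600). After TMM the limma adjusted p was 0.0366 and after quantile normalization 0.0461. CCNE2, encoding cyclin E2, was low, from 3.57 to 6.22 TPM. CDK2 had 40.6 and 38.3 TPM when WNT3A was added, 61.0 and 60.4 by 42 h, 68.2 and 40.9 by 50 h, then 55.8 and 53.9 by 72 h. Its 50 h libraries differed more than those of any other of the 54 genes at 50 h, with an SD of 0.511 on the log2 scale. CDK2 was 0.61 ± 0.20 higher at 42 h than at 34 h (limma adjusted p = 0.217). Without 50 h replicate 2 CDK2 was called at 42, 50 and 72 h against 34 h, with limma adjusted p of 0.0196, 0.0134 and 0.0120. Without 50 h replicate 1 it was called at 42 and 72 h, with limma adjusted p of 0.0206 and 0.0126.

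Of the 3 tested CDK inhibitors 2 were raised by 72 h, where 12.7% of all tested genes were raised. CDKN1A encodes p21, which binds cyclin-CDK complexes and is a classic p53 target. It had 8.67 and 11.7 TPM in the 34 h libraries, 20.7 and 16.0 at 42 h, 26.7 and 21.1 at 50 h, then 16.8 and 23.3 at 72 h. All later libraries were above both 34 h libraries. CDKN1A rose by 1.16 ± 0.22 at 50 h (limma adjusted p = 0.0200) and by 0.91 ± 0.22 at 72 h (limma adjusted p = 0.0211). At 42 h it was 0.79 higher with a limma adjusted p of 0.140. The 50 h call was lost without 34 h replicate 1 or 50 h replicate 1 (limma adjusted p = 0.123 and 0.115). The 72 h call was lost without 34 h replicate 1 or 72 h replicate 2 (limma adjusted p = 0.115 and 0.134). Both calls were also lost without the filter on low values, with limma adjusted p of 0.0617 and 0.0543.

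CDKN1B, which encodes the inhibitor p27, lay between 22.5 and 25.6 TPM through 50 h and was raised at 72 h. It had 23.5 and 24.2 TPM when WNT3A was added, 23.3 and 25.0 by 42 h, 25.6 and 22.5 by 50 h, then 32.6 and 32.2 by 72 h. The rise at 72 h was 0.42 ± 0.12 (limma adjusted p = 0.0322). It was no longer called after TMM (limma adjusted p = 0.0563), after quantile normalization (0.0640), or without any 1 of the 4 libraries of 34 and 72 h (limma adjusted p from 0.103 to 0.132). CDKN2D, an inhibitor of CDK4 and CDK6, had 2.82 and 1.86 TPM in the 34 h libraries, 1.62 and 2.08 at 42 h, 1.69 and 1.64 at 50 h, then 5.01 and 2.03 at 72 h, and was not called. CCND1 TPM divided by the summed TPM of CDKN1A and CDKN1B was 2.76 and 1.82 at 34 h and 5.44 to 6.83 in the 6 later libraries.

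None of the retinoblastoma family genes was called. RB1 had 9.65 and 12.02 TPM in the 34 h libraries, 12.8 and 12.3 at 42 h, 13.2 and 12.9 at 50 h, then 13.0 and 12.4 at 72 h. RBL1, encoding p107, had 8.81 and 7.42 TPM when WNT3A was added, 7.98 and 7.81 by 42 h, 8.39 and 10.7 by 50 h, then 9.95 and 8.18 by 72 h. RBL2, encoding p130, had 16.7 and 20.5 TPM in the 34 h libraries, 18.0 and 20.1 at 42 h, 19.6 and 19.4 at 50 h, then 19.7 and 26.3 at 72 h. Their differences between 72 and 34 h lay between 0.14 and 0.29, with limma adjusted p from 0.253 to 0.602.

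E2F factors bind the promoters of replication genes, and 3 of the 5 were raised at 72 h, where 12.7% of all tested genes were raised. E2F1, an activating member, had 24.0 and 22.7 TPM when WNT3A was added, 35.0 and 30.001 by 42 h, 40.3 and 31.2 by 50 h, then 38.3 and 38.2 by 72 h. E2F2, another activator, was lower, with 3.24 and 3.99 TPM in the 34 h libraries, 3.82 and 2.61 at 42 h, 5.19 and 4.802 at 50 h, then 8.88 and 7.44 at 72 h. E2F7, an atypical member that represses E2F targets, had 14.5 and 15.1 TPM when WNT3A was added, 19.2 and 18.9 by 42 h, 21.5 and 26.4 by 50 h, then 24.9 and 20.9 by 72 h. E2F1 and E2F7 were above their 34 h levels in all 6 later libraries, and E2F2 in all 4 libraries of 50 and 72 h. At 72 h E2F1 rose by 0.69 ± 0.15 (limma adjusted p = 0.0109), E2F2 by 0.99 ± 0.21 (limma adjusted p = 0.0109) and E2F7 by 0.59 ± 0.14 (limma adjusted p = 0.0203). E2F7 was also raised at 50 h, by 0.65 (limma adjusted p = 0.0350). E2F1 was 0.59 higher at 50 h with a limma adjusted p of 0.0543. That p was 0.0378 with the replicate block and 0.0337 without 50 h replicate 2.

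Several of these calls were lost in fits without 1 library. At 72 h that of E2F1 was lost without 34 h replicate 2 or either 72 h library (limma adjusted p from 0.0602 to 0.0660). That of E2F2 was lost without 34 h replicate 1 or 72 h replicate 1 (0.0672 and 0.0790). That of E2F7 was lost without either 34 h library or 72 h replicate 1 (0.0752 to 0.130), and its 50 h call in 7 of the 8 fits without 1 library, all but that without 50 h replicate 1 (0.0522 to 0.153), and after quantile normalization (0.0567). E2F3, with 23.2 to 28.4 TPM, and the repressor E2F8, with 9.12 to 12.9 TPM, were not called in any comparison.

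Promoter windows were read for these genes from RefSeq (GRCh38.p14), each from 250 bases before to 30 bases after the annotated start, and 46 of the 55 genes matched by symbol. They were searched on both strands for an E2F site (TTTGGCGC, TTTCCCGC or TTTCGCGC), a cell cycle homology region or CHR (TTTGAA or TTCGAA) and a CCAAT box (CCAAT). The E2F site was found in 32.6% of the 46 genes and in 3.18% of the 27305 RefSeq genes with such a window, a gene counting where any of its windows held the letters. The shares were 32.6% and 18.7% for the CHR, and 73.9% and 38.7% for the CCAAT box. Of the E2F genes 3 of the 4 matched held an E2F site, among them E2F2, whose window shows the single match, 42 to 35 bases before the start, in capitals (chr1:23531204-23531483, minus strand). The windows of CDKN1A and CDK6 held none of these letters. A match describes letters in the window and not a bound site.
E2F2: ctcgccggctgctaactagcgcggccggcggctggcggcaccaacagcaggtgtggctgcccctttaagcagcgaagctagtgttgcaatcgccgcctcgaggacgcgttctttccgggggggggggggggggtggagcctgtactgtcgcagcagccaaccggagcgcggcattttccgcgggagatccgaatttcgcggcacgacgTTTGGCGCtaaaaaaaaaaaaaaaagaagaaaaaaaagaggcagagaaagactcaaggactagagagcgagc

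The CDC25 phosphatases remove inhibitory phosphates from CDKs, and 1 of the 3 was raised at 72 h, beside 12.7% of all tested genes. CDC25B had 20.0 and 17.4 TPM in the 34 h libraries, 22.5 and 20.7 at 42 h, 27.1 and 21.7 at 50 h, then 27.5 and 29.1 at 72 h. The rise of CDC25B at 72 h was 0.58 ± 0.14 (limma adjusted p = 0.0228), with both 72 h libraries above the other 6. It was lost without 34 h replicate 2 or either 72 h library (limma adjusted p from 0.0820 to 0.128). CDC25A, at 56.6 to 74.5 TPM, and CDC25C, at 22.3 to 33.0 TPM, were not called in any comparison.

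**Figure D2:**
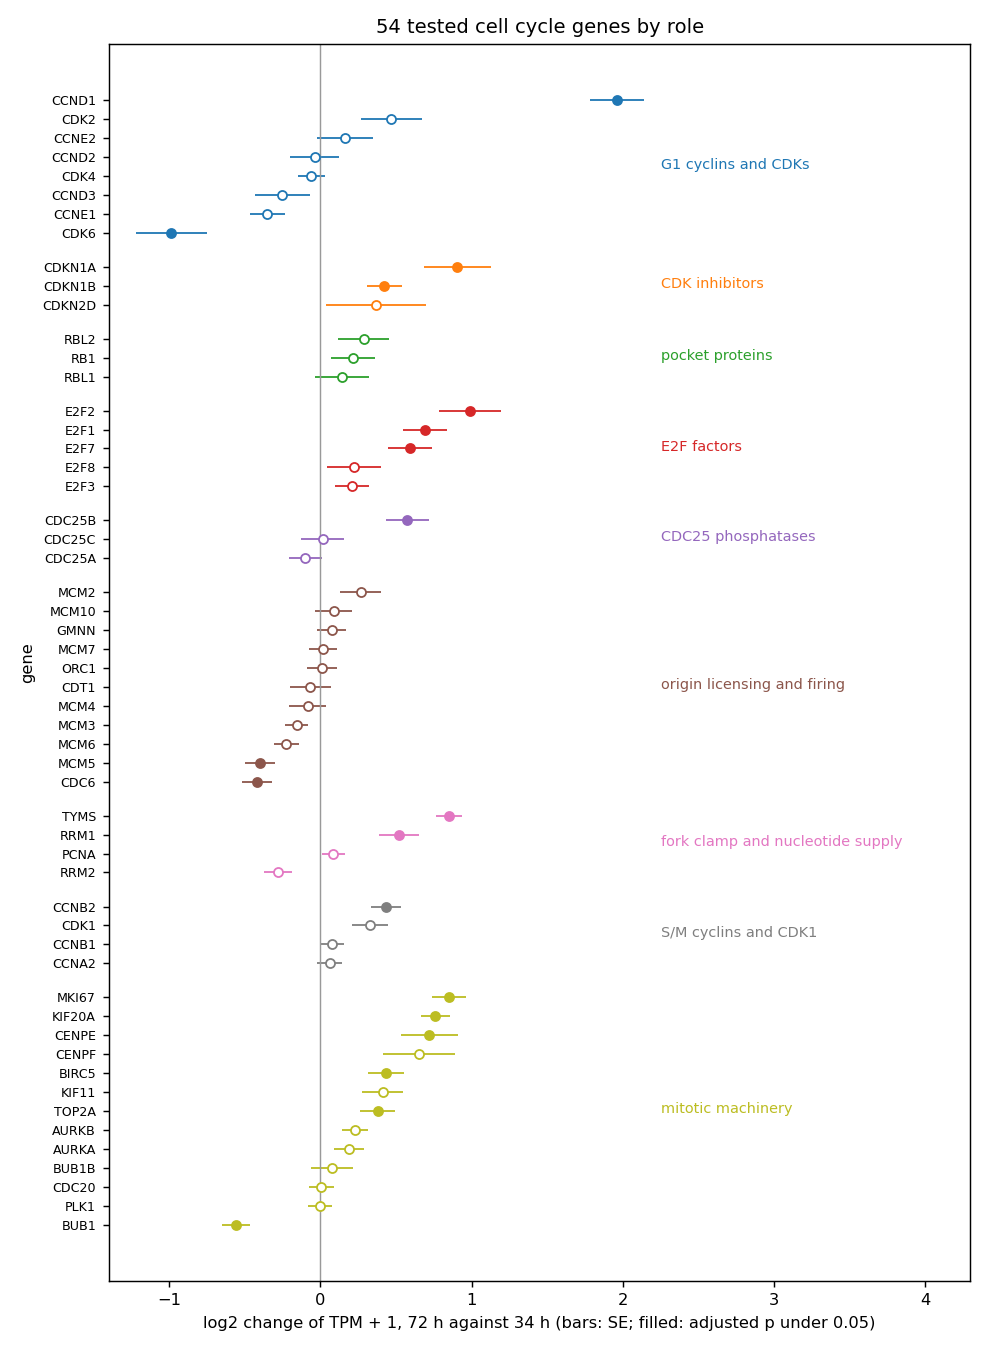
Difference between 72 and 34 h on the log2(TPM + 1) scale (x axis) for each of the 54 tested genes (y axis), grouped by role. Points are limma estimates, bars are their SE, and filled points passed an adjusted p of 0.05. CCND1 at 1.96 and CDK6 at -0.99 are the extremes, and the 11 licensing genes lie between -0.42 and 0.27.

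Of the 11 origin licensing genes 2 were lowered at 72 h and none was raised (18.2%), where 24.0% of all tested genes were called and 11.3% lowered. CDC6, which loads the MCM helicase, had 121 and 121 TPM when WNT3A was added, 115 and 113 by 42 h, 119 and 125 by 50 h, then 98.5 and 83.6 by 72 h. MCM5, a helicase subunit, had 219.9 and 217 TPM in the 34 h libraries, 214 and 248 at 42 h, 249.98 and 237 at 50 h, then 157 and 175 at 72 h. In both genes the 72 h libraries were below the other 6. Against 34 h CDC6 fell by 0.42 ± 0.10 (limma adjusted p = 0.0192) and MCM5 fell by 0.40 ± 0.10 (limma adjusted p = 0.0221). Both calls were lost in some of the fits without 1 library. That of CDC6 was lost without either 34 h library or 72 h replicate 2 (limma adjusted p from 0.0794 to 0.122). That of MCM5 was lost without either 34 h library or 72 h replicate 1 (0.0885 to 0.138) and after quantile normalization (0.0545).

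From 50 to 72 h 3 of the 11 licensing genes were lowered and none was raised, where 7.33% of all tested genes were called and 4.41% lowered. MCM3, another helicase subunit, had 279.8 and 272 TPM when WNT3A was added, 316 and 337 by 42 h, 343 and 335 by 50 h, then 247 and 247 by 72 h. It was highest at 42 and 50 h and lowest at 72 h, with no overlap between the 50 and 72 h libraries. From 50 to 72 h MCM3 fell by 0.45 ± 0.07 (limma adjusted p = 0.00929), MCM5 fell by 0.55 ± 0.10 (limma adjusted p = 0.0145) and CDC6 fell by 0.42 ± 0.10 (limma adjusted p = 0.0426). The call of MCM3 was lost without either 72 h library (limma adjusted p = 0.0657 and 0.0789), and that of MCM5 without either 50 h library or 72 h replicate 1 (0.0516 to 0.118). That of CDC6 was lost in all 8 fits without 1 library (0.0660 to 0.218) and with the replicate block (0.0502). The 11 differences between 72 and 50 h ran from -0.55 to -0.0021 with a median of -0.26, beside 0.0063 over all tested genes.

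The remaining 8 licensing genes were not called in any comparison. MCM2 had 118 to 186 TPM, MCM4 324 to 454 TPM, MCM6 108 to 132 TPM, MCM7 286 to 339 TPM and MCM10, a factor of origin firing, 32.3 to 49.7 TPM over the 8 libraries. After TMM MCM6 was called lower at 72 h than at 34 h (limma adjusted p = 0.0332, against 0.0795 without rescaling). The subunits MCM2 to MCM7, which act as 1 hexamer, summed to 1499 and 1344 TPM in the 34 h libraries, 1550 and 1582 at 42 h, 1693 and 1538 at 50 h, then 1303 and 1353 at 72 h. The MCM5 to MCM2 ratio was 1.51 and 1.85 at 34 h and 1.01 and 1.09 at 72 h. ORC1, a subunit of the origin recognition complex, had 53.1 to 67.5 TPM. The loader CDT1 had 70.4 to 96.4 TPM, and GMNN, which encodes its inhibitor geminin, 128 to 146 TPM.

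In the promoter windows the E2F site was found in 7 of the 9 matched licensing genes and the CHR in 1. The window of CDC6 (chr17:40287629-40287908, plus strand) held the E2F site from base 8 of the transcript and 3 CCAAT boxes upstream, 2 of them on the opposite strand. Capitals mark the matches.
CDC6: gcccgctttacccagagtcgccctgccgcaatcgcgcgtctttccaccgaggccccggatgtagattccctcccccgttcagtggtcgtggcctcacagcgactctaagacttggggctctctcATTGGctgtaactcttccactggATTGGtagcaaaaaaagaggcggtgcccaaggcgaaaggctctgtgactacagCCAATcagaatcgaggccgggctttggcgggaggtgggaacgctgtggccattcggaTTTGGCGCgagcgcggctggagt

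The enzymes that supply nucleotides did not move alike. TYMS, thymidylate synthase, lies at chr18:657604-673578 and makes the thymidine nucleotide. It had 139.6 and 145 TPM when WNT3A was added, 165 and 159 by 42 h, 178 and 199 by 50 h, then 262 and 252 by 72 h. The 4 time points did not overlap and followed their order in time. TYMS rose by 0.85 ± 0.09 at 72 h (limma adjusted p = 0.000333), within replicate numbers by 0.90 and 0.79, and this call held in all 19 alternatives. At 50 h it was raised by 0.40 (limma adjusted p = 0.0305) and from 50 to 72 h by 0.44 (limma adjusted p = 0.0193). The 50 h call was lost after TMM (limma adjusted p = 0.0552), after quantile normalization (0.0517) and in 7 of the 8 fits without 1 library, all but that without 50 h replicate 1 (0.0562 to 0.150). The 72 h call against 50 h was lost without 50 h replicate 1 or either 72 h library (0.0768 to 0.138).

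Ribonucleotide reductase makes deoxynucleotides from ribonucleotides, with RRM1 as its large and RRM2 as its small subunit. RRM1 had 99.4 and 81.3 TPM in the 34 h libraries, 91.8 and 108 at 42 h, 118 and 112 at 50 h, then 139 and 121 at 72 h. It rose by 0.52 ± 0.13 at 72 h (limma adjusted p = 0.0236), a call lost without 34 h replicate 2 or either 72 h library (limma adjusted p from 0.0514 to 0.143). RRM2 had 174 and 172 TPM when WNT3A was added, 194 and 189 by 42 h, 176 and 157 by 50 h, then 149 and 136 by 72 h. Its difference at 72 h was -0.28 ± 0.09 with a limma adjusted p of 0.0597, and 0.0470 with the replicate block, 0.0256 after TMM and 0.0454 without either 50 h library. The ratio of TYMS to RRM2 TPM was 0.803 and 0.842 at 34 h and 1.75 and 1.86 at 72 h. PCNA, the sliding clamp of the replication fork, had 353 to 412 TPM and was not called in any comparison.

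Of the S and M phase cyclins and CDK1, 1 of 4 was raised at 72 h (25.0%), where 12.7% of all tested genes were raised. CCNB2, encoding cyclin B2, had 118 and 123 TPM in the 34 h libraries, 126 and 134 at 42 h, 133 and 158 at 50 h, then 165 and 161 at 72 h. It rose by 0.43 ± 0.10 (limma adjusted p = 0.0171), and the call was lost without any 1 of the 4 libraries of 34 and 72 h (limma adjusted p from 0.0654 to 0.0936). CCNB1, encoding cyclin B1, was more abundant at 279.6 to 343 TPM and was not called. The ratio of CCNB2 to CCNB1 was 0.424 and 0.433 at 34 h and 0.549 and 0.551 at 72 h. CCNA2, encoding cyclin A2, had 97.1 to 117 TPM and was not called. CDK1, their kinase, went from 90.6 and 104 TPM at 34 h to 129 and 116 TPM at 72 h, a difference of 0.33 ± 0.12 (limma adjusted p = 0.0845).

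**Figure D3:**
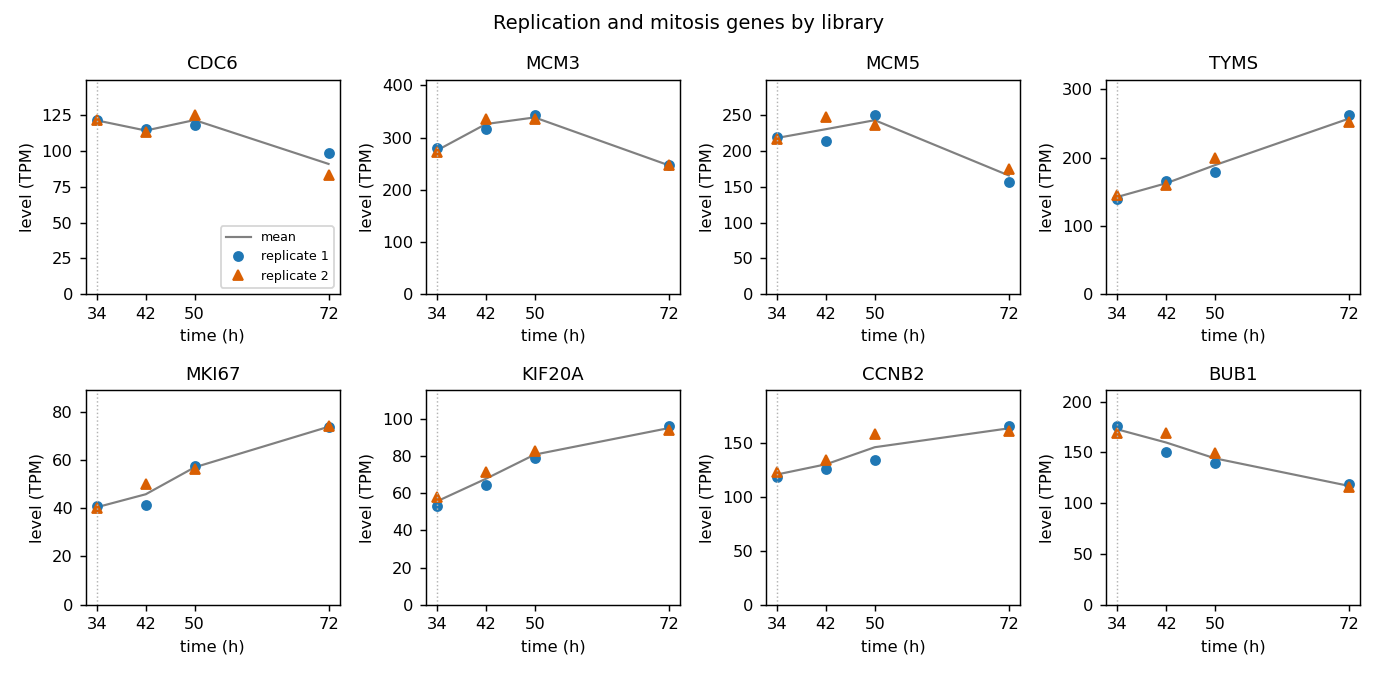
Level in TPM (y axis, from 0) of 8 replication and mitosis genes against time in h (x axis). Points are the 2 libraries of each time point, the line joins their means and the dotted line marks the addition of WNT3A. CDC6, MCM3 and MCM5 were lowest at 72 h, TYMS, MKI67, KIF20A and CCNB2 were highest there, and BUB1 was lowest there.

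Among the 13 mitotic genes 5 were raised and 1 was lowered at 72 h (46.2%), where 24.0% of all tested genes were called, 12.7% raised and 11.3% lowered. They had a median difference of 0.38 beside 0.061 over all tested genes. MKI67, the proliferation marker Ki-67 that coats mitotic chromosomes (chr10:128096659-128126385), had 40.9 and 40.0 TPM when WNT3A was added, 41.5 and 50.1 by 42 h, 57.5 and 56.3 by 50 h, then 73.5 and 74.0 by 72 h. KIF20A, a kinesin of cytokinesis (chr5:138178719-138187715), had 53.3 and 58.1 TPM in the 34 h libraries, 64.3 and 71.2 at 42 h, 78.9 and 82.7 at 50 h, then 96.1 and 94.0 at 72 h. In both genes each time point lay above the one before it with no overlap. At 72 h MKI67 rose by 0.85 ± 0.11 (limma adjusted p = 0.00125) and KIF20A by 0.76 ± 0.10 (limma adjusted p = 0.00114). At 50 h MKI67 rose by 0.48 (limma adjusted p = 0.0425) and KIF20A by 0.53 (limma adjusted p = 0.0174).

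The 72 h calls of MKI67 and KIF20A held in every fit without 1 library. The 50 h call of MKI67 did not hold after TMM (limma adjusted p = 0.0652), with the replicate block (0.0510), after quantile normalization (0.0736) and without any 1 library of 34, 50 or 72 h (0.0815 to 0.197). That of KIF20A was lost without any 1 library of 34 or 50 h (limma adjusted p from 0.0605 to 0.112).

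BUB1, a kinase of the spindle checkpoint (chr2:110637698-110678114), moved the other way. It had 176 and 169 TPM when WNT3A was added, 150.3 and 169 by 42 h, 139 and 149 by 50 h, then 119 and 115 by 72 h. Both 72 h libraries were the lowest of the 8. BUB1 fell by 0.56 ± 0.09 at 72 h (limma adjusted p = 0.00354), by 0.56 and 0.55 within replicate numbers, and the call held in every fit without 1 library. BUB1B, encoding the checkpoint protein BUBR1, had 62.9 to 83.0 TPM and was not called. The ratio of BUB1 to BUB1B was 2.74 and 2.37 at 34 h and 1.62 and 1.65 at 72 h.

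Smaller rises at 72 h were found for 3 more mitotic genes. TOP2A, the topoisomerase that untangles chromosomes, had 135 and 148 TPM in the 34 h libraries, 139.8 and 156 at 42 h, 143 and 169 at 50 h, then 196 and 174 at 72 h, and rose by 0.38 ± 0.12 (limma adjusted p = 0.0478). BIRC5, encoding survivin of the chromosomal passenger complex, had 96.6 and 77.9 TPM in the 34 h libraries, 105 and 94.0 at 42 h, 119 and 119.5 at 50 h, then 123 and 112 at 72 h, and rose by 0.43 ± 0.12 (limma adjusted p = 0.0343). CENPE, a kinetochore motor, had 10.7 and 13.6 TPM in the 34 h libraries, 15.2 and 19.1 at 42 h, 16.9 and 22.2 at 50 h, then 21.6 and 19.5 at 72 h, and rose by 0.72 ± 0.19 (limma adjusted p = 0.0267). In none of these 3 genes did the 34 and 72 h libraries overlap, which adds no support, since the 3 were picked as called. The TOP2A call was lost after TMM (limma adjusted p = 0.0964), with mitochondrial genes left out (0.0604), with Ensembl rows kept apart (0.0536) and in 6 of the 8 fits without 1 library, all but those without a 50 h library (0.0601 to 0.235). That of BIRC5 was lost without 34 h replicate 2 or either 72 h library (0.0836 to 0.188). That of CENPE was lost after quantile normalization (0.0536) and without 34 h replicate 1 or either 72 h library (0.0832 to 0.140). At 50 h BIRC5 was 0.45 higher than at 34 h with a limma adjusted p of 0.0691, and 0.0424 with the replicate block.

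The other 7 mitotic genes were not called in any comparison. CENPF, another kinetochore protein, went from 65.9 and 103 TPM at 34 h to 155 and 109 TPM at 72 h. Its 34 h libraries differed more than those of any other of the 54 genes at 34 h (SD 0.449 on the log2 scale). Its difference at 72 h was 0.65 ± 0.24 (limma adjusted p = 0.0823), and 0.0378 without 34 h replicate 2. The mitotic kinases AURKA, with 80.3 to 100.2 TPM, AURKB, with 171 to 235 TPM, and PLK1, with 157 to 183 TPM, differed between 72 and 34 h by 0.19, 0.23 and -0.0025. AURKB was called higher after quantile normalization at 50 h (limma adjusted p = 0.0496) and 72 h (0.0335). The spindle motor KIF11, with 40.7 to 60.5 TPM, differed by 0.41 (limma adjusted p = 0.0597), and CDC20, an activator of the anaphase promoting complex with 228 to 262 TPM, by 0.0054.

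In the promoter windows the CHR was found in 7 of the 11 matched mitotic genes, the CCAAT box in 9 and the E2F site in 0. The windows of MKI67, raised over the course, and BUB1, lowered over it, are shown for comparison. MKI67 (chr10:128126394-128126673, minus strand) held 2 CHR matches, starting 47 and 29 bases before the start, and 2 CCAAT boxes on the opposite strand, the nearer of which shares letters with a CHR. BUB1 (chr2:110678034-110678313, minus strand) held a CHR from base 2 of the transcript and 2 CCAAT boxes starting 79 bases (opposite strand) and 54 bases before it. Capitals mark the matches.
MKI67: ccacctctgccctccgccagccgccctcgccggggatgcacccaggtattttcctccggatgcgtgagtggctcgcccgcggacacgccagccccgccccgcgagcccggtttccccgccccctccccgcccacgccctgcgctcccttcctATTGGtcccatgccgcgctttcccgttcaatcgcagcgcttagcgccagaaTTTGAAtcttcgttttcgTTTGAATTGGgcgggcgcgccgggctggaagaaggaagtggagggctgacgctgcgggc
BUB1: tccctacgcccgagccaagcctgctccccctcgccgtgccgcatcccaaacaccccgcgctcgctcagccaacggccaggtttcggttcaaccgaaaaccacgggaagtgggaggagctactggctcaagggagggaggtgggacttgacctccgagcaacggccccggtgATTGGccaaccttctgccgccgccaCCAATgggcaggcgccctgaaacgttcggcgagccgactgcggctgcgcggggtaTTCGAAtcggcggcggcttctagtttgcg

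Summed by role, levels at 72 h relative to 34 h were 1.41 for the G1 cyclins and CDKs, 1.54 for the CDK inhibitors and 1.44 for the E2F factors. CCND1 carried the G1 sum: the other 7 genes of that role summed to 443 and 412 TPM at 34 h and to 411 and 408 TPM at 72 h, a ratio of 0.958. The median log2 difference of the 8 G1 genes was -0.048. The summed levels at 72 h relative to 34 h were 0.936 for origin licensing, which stood at 1.13 at 50 h, and 1.19 for the fork clamp and nucleotide supply. They were 1.15 for both the S and M phase cyclins with CDK1 and the mitotic genes. The mitotic sum divided by the licensing sum was 0.702 and 0.797 when WNT3A was added, 0.721 and 0.747 by 42 h, 0.710 and 0.797 by 50 h, then 0.945 and 0.893 by 72 h. The 72 h libraries lay above the other 6 in this ratio. All 55 genes together summed to 5426 and 5243 TPM at 34 h, 5943 and 5937 at 42 h, 6373 and 6202 at 50 h, then 6004 and 5852 at 72 h.

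**Figure D4:**
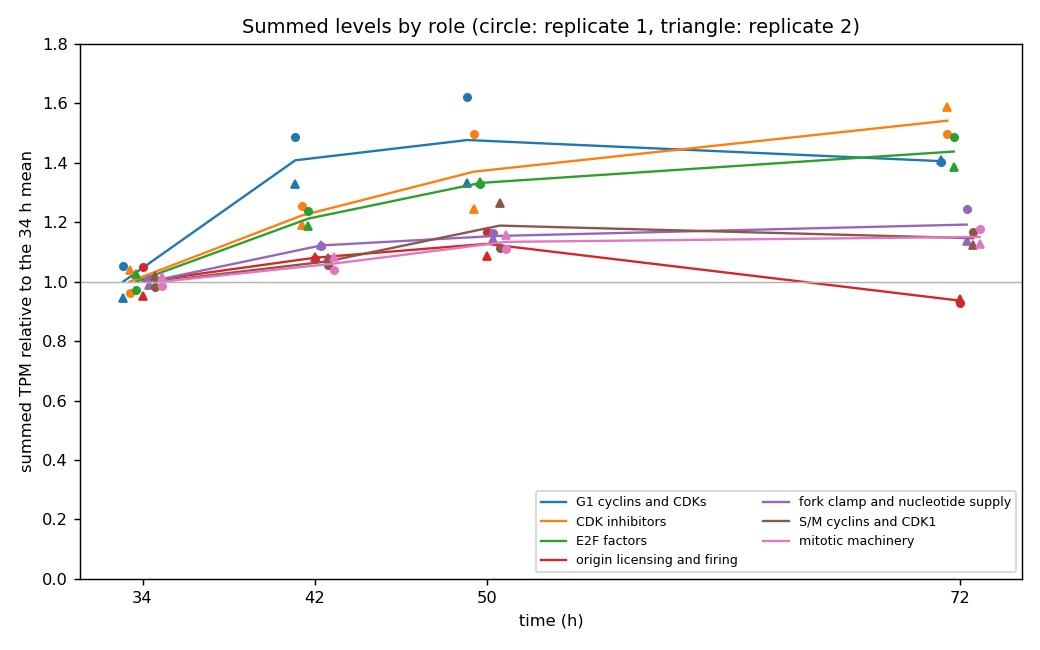
Summed TPM of 7 roles, divided by the mean of the 34 h libraries (y axis), against time in h (x axis, with roles set slightly apart). Circles are replicate 1, triangles replicate 2, and lines join the means. The G1 sum was at 1.41 by 42 h, where the 7 genes other than CCND1 were at 1.02, and origin licensing stood below 1 at 72 h, at 0.936.

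Wider lists of the same pathways, chosen with results of these data known, were read beside the 55 genes at 72 h. Of 46 tested further mitosis genes 25 were raised and none was lowered (54.3%, where 24.0% of all tested genes were called), with a median difference of 0.40. CENPA, the centromeric histone, went from 17.4 and 15.3 TPM to 34.3 and 37.0 TPM (1.08 ± 0.14, limma adjusted p = 0.00128). RACGAP1, a cytokinesis protein, went from 46.2 and 51.4 TPM to 84.0 and 76.7 TPM (0.71 ± 0.10, limma adjusted p = 0.00188). NUF2, of the kinetochore, rose by 0.75 (limma adjusted p = 0.0235) and KIF15, a spindle motor, by 0.72 (limma adjusted p = 0.00934). The NUF2 call was lost without the filter on low values (limma adjusted p = 0.0554) and without any 1 of the 4 libraries of 34 and 72 h (0.0575 to 0.138). That of KIF15 was lost without 34 h replicate 1 (0.0616) or 72 h replicate 1 (0.0729). The count of 25 became 16 after TMM, 19 after quantile normalization and 15 without the filter on low values. It was 8 and 12 without 34 h replicate 1 and 2, and 7 and 9 without 72 h replicate 1 and 2.

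Of 49 further replication genes 11 were raised and 1 was lowered (24.5% in all, 22.4% raised and 2.04% lowered), where 24.0% of all tested genes were called, 12.7% raised and 11.3% lowered. Their median difference was 0.17. UHRF1, which reads hemimethylated DNA, went from 49.2 and 37.5 TPM to 96.9 and 85.8 TPM (1.07 ± 0.17, limma adjusted p = 0.00305). TIMELESS, of the fork protection complex, rose by 0.55 (limma adjusted p = 0.00401), the chromatin assembly subunit CHAF1B by 0.54 (limma adjusted p = 0.0221) and WDR76 by 0.66 (limma adjusted p = 0.0248). DUT, the dUTPase that keeps uracil out of DNA, went from 176 and 173 TPM to 125 and 118 TPM, and fell by 0.52 (limma adjusted p = 0.00511). The CHAF1B call was lost without 34 h replicate 2 or either 72 h library (limma adjusted p from 0.0958 to 0.126). That of WDR76 was lost without either 34 h library or 72 h replicate 1 (0.0810 to 0.146), without the filter (0.0517) and with the compared time points alone (0.0656). The count raised was 7 and 3 without 34 h replicate 1 and 2, and 2 and 4 without 72 h replicate 1 and 2.

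Of 26 tested further regulators 4 were raised and none was lowered (15.4%), where 24.0% of all tested genes were called and 12.7% raised. CCNG2, an atypical cyclin linked to cell cycle arrest, had 11.8 and 11.8 TPM in the 34 h libraries, 24.1 and 18.3 at 42 h, 25.0 and 23.7 at 50 h, then 28.5 and 31.1 at 72 h. It was the 1 gene called at 42 h of the 49 replication, 46 mitosis, 26 regulator and 20 p53 target genes tested. Over all tested genes 2.58% were called at 42 h. CCNG2 rose by 0.78 at 42 h (limma adjusted p = 0.0333) and by 1.27 ± 0.15 at 72 h (limma adjusted p = 0.000697). Its 42 h call was lost in 7 of the 8 fits without 1 library, all but that without 42 h replicate 2 (limma adjusted p from 0.0531 to 0.177). It was also lost without the filter (0.0743), without the variance trend (0.0543) and with the compared time points alone (0.157). CDKN3, a phosphatase that binds CDKs, rose by 0.98 (limma adjusted p = 0.00140), FZR1, an activator of the anaphase promoting complex in G1, by 0.65 (limma adjusted p = 0.0203) and SKP2, which targets p27 for degradation, by 0.48 (limma adjusted p = 0.0128). The FZR1 call was lost without any 1 of the 4 libraries of 34 and 72 h (limma adjusted p from 0.0634 to 0.119), and that of SKP2 without 34 h replicate 2 or either 72 h library (0.0664 to 0.0845). The count of 4 became 2 without 34 h replicate 2 or either 72 h library.

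Of 20 p53 target genes read beside CDKN1A 5 were raised and 1 was lowered at 72 h (30% in all). Over all tested genes 24.0% were called, 12.7% raised and 11.3% lowered. Of the 20 genes 12 differed by more than 0 and 8 by less, with a median of 0.21 beside 0.061 over all tested genes. The count raised became 3 after TMM, 2 without 34 h replicate 1 or 72 h replicate 1, and 1 without 34 h replicate 2 or 72 h replicate 2. BTG2, an antiproliferative gene, went from 2.54 and 3.60 TPM to 10.1 and 11.0 TPM (1.52 ± 0.25, limma adjusted p = 0.00380). FDXR rose by 0.74 (limma adjusted p = 0.0205), the DNA damage gene DDB2 by 0.69 (limma adjusted p = 0.00912) and ZMAT3 by 0.63 (limma adjusted p = 0.0469). The ZMAT3 call was lost in all 8 fits without 1 library (limma adjusted p from 0.0539 to 0.222), after TMM (0.0676) and after quantile normalization (0.0580). That of FDXR was lost without any 1 of the 4 libraries of 34 and 72 h (0.0636 to 0.112), and that of DDB2 without 34 h replicate 2 (0.0640) or 72 h replicate 2 (0.0595). SESN2, a stress-induced sestrin, went from 31.2 and 32.9 TPM to 14.5 and 17.2 TPM, and fell by 0.98 (limma adjusted p = 0.00128).

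**Figure D5:**
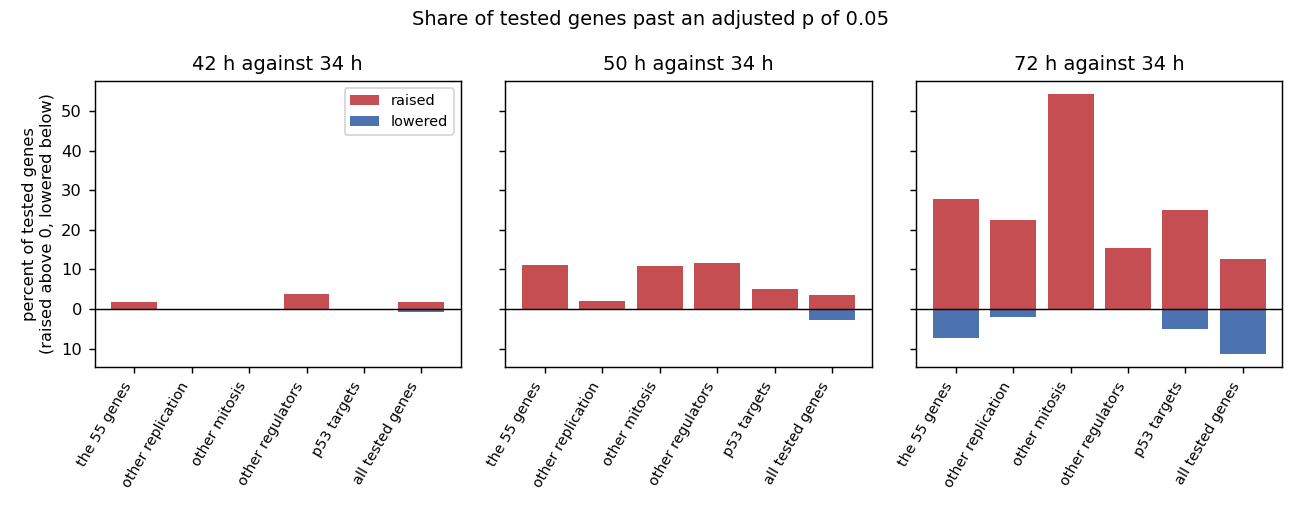
Percent of tested genes (y axis, raised above 0 and lowered below 0) with a limma adjusted p under 0.05 at 42, 50 and 72 h against 34 h, for the 55 genes, 4 further lists and all tested genes. At 72 h further mitosis genes reached 54.3% raised, the 55 genes 27.8% raised and 7.41% lowered, and all tested genes 12.7% raised and 11.3% lowered.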

How the data were processed

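The values are TPM per gene, deposited by the authors as 1 column per library. The submitters' processing notes name Salmon 1.9.0 and GRCh38, with no role or order, and the annotation and the summing of transcripts to genes are not given in the sources used here. Each column sums to 1000000, so depth is not recorded and only the 2 libraries per time point limit the precision stated. TPM share a fixed total, so a change in abundant transcripts shifts all others.

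Rows were summed by gene symbol and analysed as log2(TPM + 1), a log2 scale computed here from the deposited TPM. All 8 libraries entered a single limma fit (limma 3.58.1, R 4.3.3) with a mean per time point and a mean-variance trend, on the 14908 genes that reached 1 TPM in 2 or more libraries. P-values were two-sided and adjusted by Benjamini-Hochberg over all 14908 genes, with 4 residual degrees of freedom. The fit was tested on simulated data. TMM factors (trimmed mean of log ratios) were computed from the TPM columns. The members and all gene lists were chosen with earlier results of these data known.

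The labels repeat the replicate number as a batch, which pairs libraries. The differences between replicates correlated over genes at 0.0949 (34 and 42 h), 0.195 (34 and 50 h), 0.142 (42 and 50 h), -0.0445 (34 and 72 h), -0.0779 (42 and 72 h) and -0.104 (50 and 72 h). The replicate block was an alternative fit.

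Each time point was compared with 34 h, 50 h with 42 h, and 72 h with 50 h. The alternatives were another pseudocount (0.1), no filter and a filter on the mean (5 TPM), TMM, quantile normalization, mitochondrial genes left out, Ensembl rows kept apart, no variance trend, the compared time points alone, the block, limma's treat with a minimum log2 change of 0.5, and each library left out. Called genes, D-type cyclins, tested inhibitors and retinoblastoma genes are given in every library, and from each wider list up to 4 rises and 4 falls, the largest called at 72 h. Gene positions are those of GENCODE 29 on GRCh38. Promoter windows came from RefSeq (GRCh38.p14), 280 bases long, and were read for the 3 highest rises and the 3 deepest falls called at 72 h among genes with a window. The 4 of these 6 that held a match are shown.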

Additional observations from a re-analysis of the deposited data

How the results depend on the processing

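Over the 19 alternatives no difference of a member named as called changed sign. Counts of called genes among the 54 and among all tested genes stayed within 1.5 times the reported ones except as follows. Without the filter on low values 3 members were called at 50 h against 34 h, 7 by the F-test and 8 of all genes at 50 h against 42 h. With a mean of at least 5 TPM, Ensembl rows kept apart, and the replicate block, all genes called at 50 h against 42 h were 24, 4 and 7. Without the variance trend the members called were 3 at 50 h against 34 h, 0 at 72 h against 50 h and 5 by the F-test, and all genes called at 50 h against 42 h were 27. With a minimum log2 change of 0.5 the members called were 1 at 50 h, 2 at 72 h against 34 h (CCND1 and TYMS) and 0 at 72 h against 50 h. All genes called against 34 h were then 110, 254 and 919 in order of time, with 2 between 42 and 50 h and 212 between 50 and 72 h. With the compared time points alone the members called were 1 at 50 h against 34 h and 0 at 72 h against 50 h, and all genes called were 171 at 42 h, 431 at 50 h, 0 at 50 h against 42 h and 367 at 72 h against 50 h. This setting has fewer libraries in the fit; for the others the cause was not tested.

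Leaving out each library in turn, the members called ranged from 1 to 2 at 42 h, 1 to 4 at 50 h and 7 to 21 at 72 h against 34 h. They were 0 to 0 at 50 h against 42 h, 0 to 3 at 72 h against 50 h and 4 to 14 by the F-test. All genes called ranged from 161 to 372 at 42 h, 398 to 793 at 50 h and 1867 to 3629 at 72 h against 34 h, 1 to 8 at 50 h against 42 h, 316 to 911 at 72 h against 50 h and 1118 to 2478 by the F-test. A time point left with 1 library is assumed to vary like the others.

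Of the 19 members called at 72 h against 34 h, the number lost was 2 after TMM (CDKN1B and TOP2A), 3 after quantile normalization (CDKN1B, MCM5 and CENPE), 4 without the filter (CDKN1A, TOP2A, BIRC5 and CENPE), 6 without the variance trend (CDC6, MCM5, RRM1, CCNB2, TOP2A and BIRC5), and 1 each with the compared time points alone (BIRC5), mitochondrial genes left out (TOP2A) and Ensembl rows kept apart (TOP2A). With the replicate block MKI67 at 50 h against 34 h and CDC6 at 72 h against 50 h were lost (limma adjusted p = 0.0510 and 0.0502). RRM2 at 72 h and E2F1 and BIRC5 at 50 h against 34 h, and CDK6 at 72 h against 50 h, were gained (limma adjusted p = 0.0470, 0.0378, 0.0424 and 0.0319). In the F-test the block lost CDC6 and E2F7 (limma adjusted p = 0.0586 and 0.0596) and gained BIRC5, CDK6 and RRM2 (0.0431, 0.0326 and 0.0444). The block changed no other call of a member in these tests.

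In the wider lists at 72 h the 25 mitosis genes raised became 18 without the variance trend and 1 with the minimum log2 change of 0.5. The 11 replication genes raised became 7 and 0, and 8 with no filter. The 4 regulators raised became 4 and 1, and the 5 p53 targets 4 and 1.

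The depth is unknown, and the precision of every difference rests on 2 libraries per time point.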
